A study of Mus musculus with 2 samples.

Results

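The cells described here were capillary and vascular endothelial cells, the lining cells of vessels other than the liver sinusoids, in 2 mouse models of liver cancer. They were chosen as barcodes by counts of unique molecular identifiers (UMIs, each standing for 1 captured RNA molecule). A member held at most 20% mitochondrial UMIs, at least 1 UMI in 3 or more of the 7 genes Pecam1, Cdh5, Kdr, Ptprb, Egfl7, Emcn and Vwf, and at least 1 UMI in no more than 1 of the 6 sinusoidal genes Clec4g, Stab2, Dnase1l3, Oit3, Gpr182 and F8. Its C1qa, C1qb and C1qc UMIs stayed under 0.5% of the total, and it held at most 1 UMI of Cd3d, Cd3e and Cd3g together. The rule took 680 of the 16410 barcodes within the mitochondrial limit, out of 17078 in all. NRAS.MYC.ND contributed 298 members of 6097 barcodes (4.89%, 95% exact interval 4.36 to 5.46%) and AKT1.MYC 382 of 10313 (3.70%, 3.35 to 4.09%). Because measured genes chose the members, every level below is a description of chosen cells.

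Both groups were C57BL/6 mice given plasmids by hydrodynamic tail vein injection, a rapid large-volume injection that delivers DNA mainly to hepatocytes, together with a Sleeping Beauty transposase, an enzyme that moves the plasmid's cargo into chromosomes. NRAS.MYC.ND mice received 19 µg of human N-Ras, 1 µg of human c-Myc and 2 µg of transposase plasmid. AKT1.MYC mice received 10 µg of Akt1, 10 µg of human c-Myc and 5 µg of transposase plasmid. Liver tumour tissue was taken after 14 weeks, digested, depleted of dead cells and run as 1 droplet-based 3' library per model. Age, sex, the number of animals behind each library and the meaning of ND are not given in the sources used here. With 1 library per model, no difference between the models could be set against a spread between animals, and model, animal and library cannot be told apart.

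Endothelial cells take up oxygen and nutrients from blood and pass them to the tissue, and their identity differs along the vascular tree. In healthy liver most of them are sinusoidal cells, with open pores, scavenger receptors and almost no basement membrane. Tumour vessels instead tend to carry a basement membrane and the genes of continuous capillaries, and their growing ends hold tip cells, which respond to vascular endothelial growth factor (VEGF) and secrete matrix-modifying proteins.

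The libraries held 42416125 UMIs in 6312 barcodes (NRAS.MYC.ND) and 64516171 UMIs in 10766 barcodes (AKT1.MYC), with no barcode under 500 UMIs. The 2 libraries shared 17 barcode sequences, among them 1 NRAS.MYC.ND member and 2 AKT1.MYC members. Median member depth was 6002.5 UMIs for NRAS.MYC.ND and 8561.5 UMIs for AKT1.MYC. Levels are given as CPM, the UMIs of a gene per 1000000 UMIs summed over the members of a library, and differences as the log2 ratio of AKT1.MYC over NRAS.MYC.ND, so that a positive value is higher in AKT1.MYC. Intervals for CPM ratios and shares are exact 95% intervals and cover counting error only.

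The label was checked against 27 pan-endothelial genes that the rule does not use, among them Tie1, Tek, Flt1, Esam, Cldn5, Eng, Erg, Sox17, Sox18, Plvap and Cd34. The members fell into 2 bands. In the upper band the 27 genes made up at least 0.3% of a barcode's UMIs, a limit set after the values had been seen. It held 250 members of NRAS.MYC.ND, with a median share of 1.52%, and 233 of AKT1.MYC, with a median of 1.10%. The remaining 48 and 149 members had median shares of 0.020% and 0.030%, against 0.025% and 0.029% over barcodes that were neither members nor sinusoidal. Between 0.2% and 0.4% lay only 1 NRAS.MYC.ND member and 22 AKT1.MYC members.

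**Figure D1:**
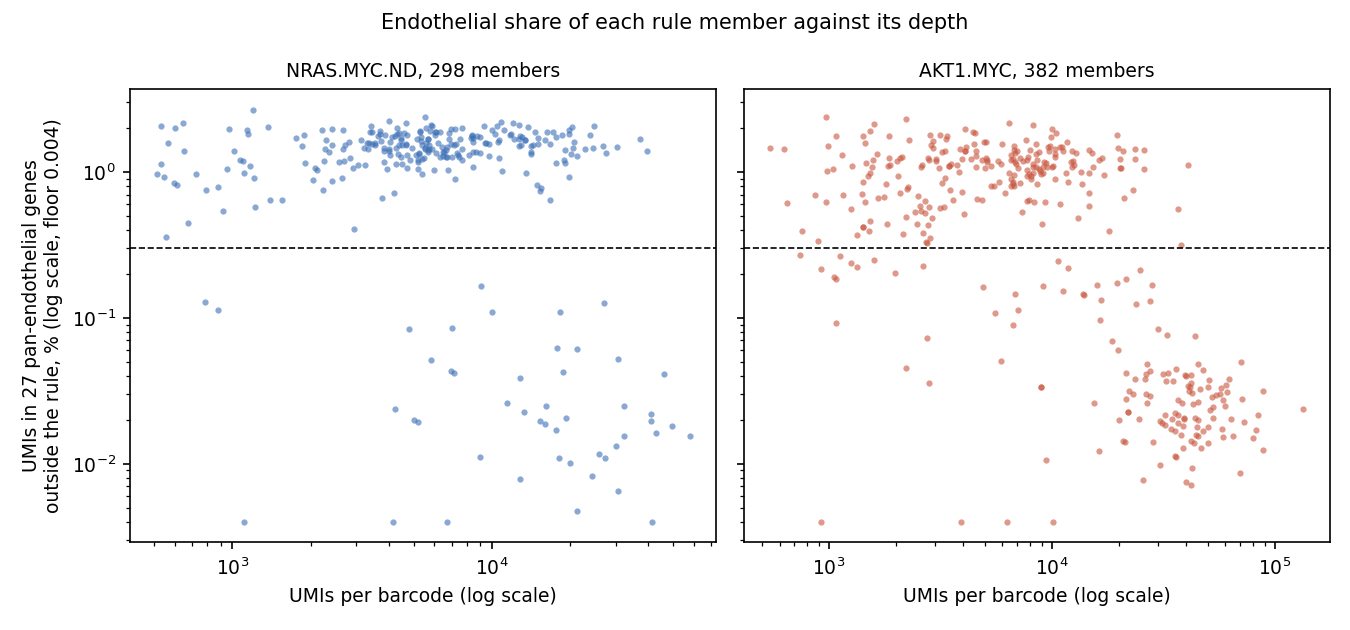
Each point is a member; the x axis is its UMI count (log scale) and the y axis the percent of its UMIs in the 27 pan-endothelial genes outside the rule (log scale, zeros drawn at the floor of the axis), with NRAS.MYC.ND on the left, AKT1.MYC on the right and a dashed line at 0.3%. The 149 AKT1.MYC members under the line are mostly deep barcodes, with a median of 32929 UMIs.

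The data went against the label for the lower band. Its members were deep, with medians of 17670 UMIs for NRAS.MYC.ND and 32929 UMIs for AKT1.MYC, and they made up 16.1% and 39.0% of members but 33.4% and 75.3% of the members' UMIs. In AKT1.MYC the genes with the largest ratio over the upper band were Dmbt1, Sycn, Cldn4, Sprr1a, Mal2, Abcc2 and Grb14, several of them genes of epithelium, and 10 duct and tumour epithelial markers took a median of 3.23% of UMIs. In NRAS.MYC.ND the leading genes were Car1, Msln, Efemp1, Jchain, Bicc1, Dcn and Upk3b, which include erythroid, mesothelial, plasma cell and fibroblast genes. Apln stood at 0 and 1.41 CPM in the lower band and at 52.9 and 177 CPM in the upper band, and Emcn, an endothelial surface sialomucin, at 19.2 and 19.9 against 1895 and 1065 CPM. Most of the lower band entered with few rule genes: members with exactly 3 of the 7 numbered 53 and 115, of which 13 and 19 were in the upper band, and barcodes just outside the rule with 2 of the 7 numbered 185 and 490, of which 12 and 25 reached 0.3%. At the sinusoidal limit, 124 and 128 members held 1 of the 6 sinusoidal genes. Just outside, 78 and 58 barcodes held 2, of which 69 and 50 reached 0.3%. Barcodes that are neither members nor sinusoidal are called barcodes outside the endothelium below. They include these barcodes just outside the rule, so some of them are endothelial by the 0.3% limit.

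The results below are therefore given for the 483 members of the upper band, called endothelial-share members, with the median of a gene list over all members beside it wherever the 2 differ in direction or by over 1.5 times. Single genes are given for endothelial-share members unless all members are named. The endothelial-share members were 4.10% (95% exact interval 3.62 to 4.63%) of NRAS.MYC.ND barcodes and 2.26% (1.98 to 2.56%) of AKT1.MYC barcodes. Dissociation and capture can set such shares, and their part was not tested. Median depths were 5514.5 and 5135 UMIs, close between the libraries. Sinusoidal barcodes, with at least 3 of the 6 sinusoidal genes, numbered 557 and 96.

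Marker genes of other cell types were seen in these members to a different extent in the 2 libraries. Whether that RNA was free RNA, came from doublets or was the members' own was not tested. Summed over the marker lists, duct and tumour epithelial genes stood at 187 CPM in NRAS.MYC.ND (2 of 10 genes at 0) and 4550.1 CPM in AKT1.MYC (none of 10 at 0), and all 8 measured were at least 2-fold higher in AKT1.MYC. Mural and fibroblast markers stood at 24 and 399.6 CPM, with 5 of 12 at 0 in NRAS.MYC.ND, and macrophage and monocyte markers at 754 and 1996 CPM. Hepatocyte markers went the other way, at 2607 and 731 CPM, as did T, NK and B cell markers, at 88.2 and 12.3 CPM. Each of these sums was lower than in the barcodes outside the endothelium, where epithelial markers, for example, reached 2981 and 25494 CPM. For macrophage and T cell markers this was in part set by the rule, which capped C1q and Cd3 UMIs in members. Neutrophil markers stood at 107 and 457 CPM. Free RNA was estimated from the hepatocyte, macrophage, neutrophil and lymphocyte markers and not from the epithelial and mural ones. It came to 11.2% of member UMIs for NRAS.MYC.ND and 22.7% for AKT1.MYC. Its part in the differences below was tested only by subtracting it. The macrophage and lymphocyte lists hold genes that the rule capped, so the rule can have set part of the estimate.

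The defining endothelial genes were present, and most of them are genes of the rule. Pecam1 and Cdh5, 2 junction molecules of endothelium, were at 1123 and 761 CPM and 1036 and 922 CPM in NRAS.MYC.ND and AKT1.MYC, against 67.5 and 15.6 and 86.6 and 18.2 CPM in barcodes outside the endothelium. Egfl7, a secreted endothelial protein, was at 2064 and 1635 CPM and Ptprb, the vascular endothelial phosphatase, at 1357 and 678 CPM. Emcn was lower in AKT1.MYC, with a log2 ratio of -0.83. Genes with at least 50 CPM in both libraries were ranked by their ratio over the other barcodes, which were neither members nor sinusoidal. The smaller of the 2 libraries' ratios was used. Those with the largest ratio included Sema3g, Gja5, Hey1 and Sox17, known from arterial endothelium, with Stc1, Ly6c1, Igfbp3, Uchl1, Mecom and Plvap. Sox17 and Plvap are also among the pan-endothelial genes whose share chose these members, so their ratios are in part set by that choice. Stc1, which encodes stanniocalcin, stood at 426 and 255 CPM against 10.5 and 6.06 CPM in the other barcodes. Mecom, a transcription factor gene, stood at 166 and 152 against 5.72 and 2.17 CPM.

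Against sinusoidal barcodes of the same library, the members were richer in arterial, tip and basement membrane genes in both models. The share of measured genes at least 2-fold higher in members was 6.5% for NRAS.MYC.ND and 5.54% for AKT1.MYC, and the share at least 2-fold lower 14.1% and 6.64%. With all members in place of endothelial-share members the shares were 11.7% and 16.8% higher and 9.13% and 14.0% lower. Of 17 arterial genes in NRAS.MYC.ND, 10 were higher and 1 lower (median log2 ratio of members over sinusoidal barcodes 1.55), and of 16 in AKT1.MYC, 9 were higher and 0 lower (median 1.03). Hey1, a Notch target of arterial endothelium, stood at 251 and 130.1 CPM in members and at 16.2 and 15.5 CPM in sinusoidal barcodes. Cxcl12, a chemokine of arterial and capillary endothelium, stood at 291 and 180.5 CPM and 9.87 and 9.46 CPM. Genes with at least 50 CPM in members of both libraries were ranked by the smaller of their 2 ratios, and Cxcl12 led that list. Other genes on that list were Mal, Sparcl1, Vwa1, Stmn2, Prss23, Igfbp3, Cxcr4 and Lamb1.

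Tip and sprouting genes had medians of 1.00 and 0.94 over sinusoidal barcodes, with 10 of 20 higher and 0 lower in each library. Capillary genes in NRAS.MYC.ND had 7 of 12 higher, 1 lower and a median of 1.27, and in AKT1.MYC 3 of 11 higher, 1 lower and a median of -0.070. Basement membrane genes had medians of 0.93 (6 of 16 higher) and 0.68 (5 of 16 higher). Venous and central vein genes were lower in members, with medians of -1.83 and -1.04. Sinusoidal genes that the rule did not use, such as Fcgr2b, Mrc1 and Adam23, were at least 2-fold lower for 16 of 17 in NRAS.MYC.ND and 13 of 16 in AKT1.MYC, although the rule had removed cells with their companion genes. Over all members, the AKT1.MYC medians for tip, capillary, arterial and basement membrane genes were below 0, at -0.65, -1.61, -0.51 and -0.53. The AKT1.MYC venous median was then -2.03. In NRAS.MYC.ND the all-member medians were 0.43 for tip, 0.69 for capillary and 0.39 for basement membrane genes.

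Between the models, 11691 genes were measured in endothelial-share members, with at least 10 UMIs over both libraries. AKT1.MYC was the higher by 2-fold or more for 11.3% of them and NRAS.MYC.ND for 11%, and the median log2 ratio was -0.056. Over all members the shares were 16.0% and 18.8% of 14612 genes. Counts of list members past 2-fold are to be read against these shares. A list's interval is the median of its genes' lower and upper bounds.

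Tip and sprouting genes were divided. Of 20 measured, AKT1.MYC was the higher by 2-fold or more for 7, NRAS.MYC.ND for 0 and neither for 13, and the median log2 ratio was 0.42 (0.081 to 0.70). The 7 were Apln, Angpt2, Pgf, Kcne3, Lamb1, Cd276 and Mest. Apln (ENSMUSG00000037010, chrX:48025146-48034853, minus strand) encodes apelin, a secreted peptide of sprouting endothelium, and stood at 52.9 CPM in NRAS.MYC.ND and 177 CPM in AKT1.MYC (log2 ratio 1.75, 95% interval 1.41 to 2.09). Its level in sinusoidal barcodes differed in the same direction, at 5.50 and 72.3 CPM. Angpt2 (ENSMUSG00000031465, chr8:18690263-18741562, minus strand) encodes angiopoietin 2, the antagonist ligand of the Tek receptor that loosens vessels, and stood at 41.1 CPM in NRAS.MYC.ND and 223 CPM in AKT1.MYC (log2 ratio 2.44, 95% interval 2.08 to 2.81). In sinusoidal barcodes it was close between the libraries, at 62.5 and 64.5 CPM. Pgf, placental growth factor, was at 4.27 against 54 CPM, with 8 and 88 UMIs.

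Mest (ENSMUSG00000051855, chr6:30723547-30748465, plus strand), an imprinted gene, stood at 51.8 CPM in NRAS.MYC.ND and 240.03 CPM in AKT1.MYC (log2 ratio 2.21, 95% interval 1.89 to 2.55). Lamb1, a laminin chain of new basement membrane, was at 87.6 against 257 CPM in NRAS.MYC.ND and AKT1.MYC. Kcne3, a potassium channel subunit, was at 15 against 135 CPM, but barcodes outside the endothelium also differed, at 10.2 and 107 CPM. Esm1, the tip cell marker endocan, was not among the genes higher in AKT1.MYC and stood at 1349 against 794 CPM. Dll4, the Notch ligand that limits sprouting, was at 243 against 159 CPM, and Igfbp3, a secreted growth factor binder, at 4174 against 2999 CPM. Over all members the tip list had a median of -0.87, with AKT1.MYC the higher for 4 of 20 genes and NRAS.MYC.ND for 9, and with each endothelial-share member thinned to 1509 UMIs the median was 0.013. Among all members, Apln stood at 35.2 against 44.9 CPM and Angpt2 at 28.8 against 57.9 CPM.

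Capillary genes stood lower in AKT1.MYC. Of 14 listed, 12 were measured, and AKT1.MYC was the higher by 2-fold or more for 0, NRAS.MYC.ND for 9 and neither for 3, with a median log2 ratio of -1.43 (-1.75 to -0.99). Rgcc (ENSMUSG00000022018, chr14:79288756-79301645, minus strand), a cell cycle regulator gene that marks capillary endothelium, stood at 918 CPM in NRAS.MYC.ND and 253 CPM in AKT1.MYC (log2 ratio -1.86, 95% interval -2.02 to -1.70). Cd36 (ENSMUSG00000002944, chr5:17781690-17888801, minus strand), a fatty acid and thrombospondin receptor, stood at 357 CPM in NRAS.MYC.ND and 71.2 CPM in AKT1.MYC (log2 ratio -2.33, 95% interval -2.62 to -2.04), and was also lower in AKT1.MYC among sinusoidal barcodes, at 786 and 297 CPM. Cd300lg, a receptor of the capillary surface, was at 839.9 against 252 CPM, Tcf15, a transcription factor gene of muscle and heart capillaries, at 107 against 17.2 CPM, and Fabp4, a fatty acid carrier, at 12009 against 5831 CPM. Sgk1, a kinase gene, was at 1216 against 417 CPM, Btnl9 at 130.4 against 54 CPM and Aplnr, the apelin receptor, at 73.7 against 29.5 CPM.

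The 3 capillary genes past 2-fold in neither direction were Gpihbp1, Fabp5 and Prss23. Gpihbp1, which holds lipoprotein lipase on the capillary wall, was at 3607 against 3135 CPM, and Fabp5 at 657 against 919.6 CPM. Prss23, a secreted protease, was at 324 against 602 CPM. Car4 had 10 UMIs in NRAS.MYC.ND but had 0 in AKT1.MYC, where 0 allows up to 1.84 CPM, so that it was at least 2.90-fold lower in AKT1.MYC with 0 set to 3 UMIs over the group, and it is 1 of the 9. Over all members the capillary median was -2.60, and 10 of 12 genes were past 2-fold, each with NRAS.MYC.ND the higher.

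**Figure D2:**
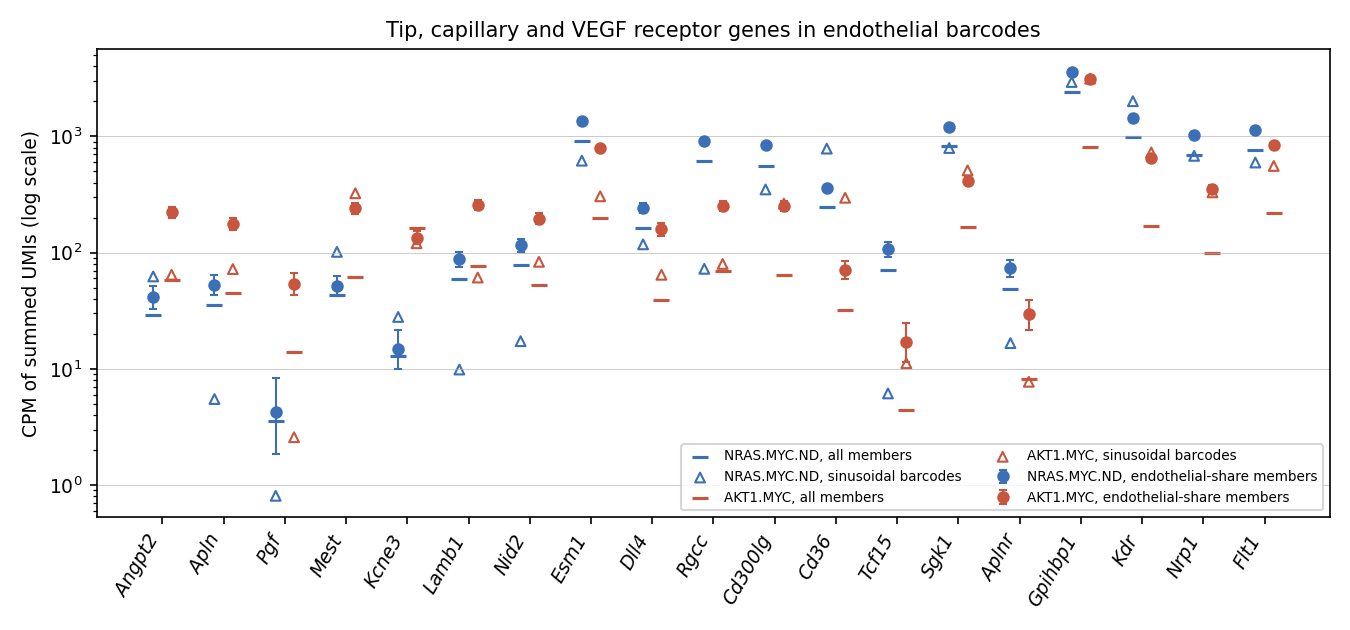
CPM of summed UMIs on a log scale for tip, capillary and VEGF receptor genes, with NRAS.MYC.ND in blue and AKT1.MYC in red; filled circles with exact 95% Poisson bars are endothelial-share members, dashes all members and open triangles sinusoidal barcodes. Apln, Angpt2, Pgf and Mest are higher in red and Rgcc, Cd300lg, Cd36, Tcf15 and Aplnr higher in blue.

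The share of members with a UMI, each thinned to 1509 UMIs so that depth is equal, is given for the genes that the comparison turns on. Thinning kept 220 of the 250 endothelial-share members in NRAS.MYC.ND and 207 of the 233 in AKT1.MYC, and left out 30 and 26 shallower ones. Of the C1q macrophages it kept 1172 of 1284 in NRAS.MYC.ND and 1914 of 4349 in AKT1.MYC. The AKT1.MYC macrophage shares therefore describe only the deeper barcodes. Rgcc was seen in 52.3% (95% exact interval 45.5 to 59%) of NRAS.MYC.ND members and 29% (95% exact interval 22.9 to 35.7%) of AKT1.MYC members, against 0.597% and 4.81% of C1q macrophages thinned alike. Unthinned, the member shares were 70.4% and 50.2%. Cd300lg was seen in 65.9% and 26.6% of thinned members and Cd36 in 37.3% and 8.21%. The Cd36 share in AKT1.MYC lay below that in macrophages, 15.5% and 15.7%. No excess over macrophages was shown for it there, which is not an absence of Cd36. Apln was seen in 7.73% (95% exact interval 4.57 to 12.1%) of NRAS.MYC.ND members and 15.5% (95% exact interval 10.8 to 21.1%) of AKT1.MYC members, and Angpt2 in 4.09% and 12.1%, against at most 0.627% of macrophages for either gene.

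**Figure D3:**
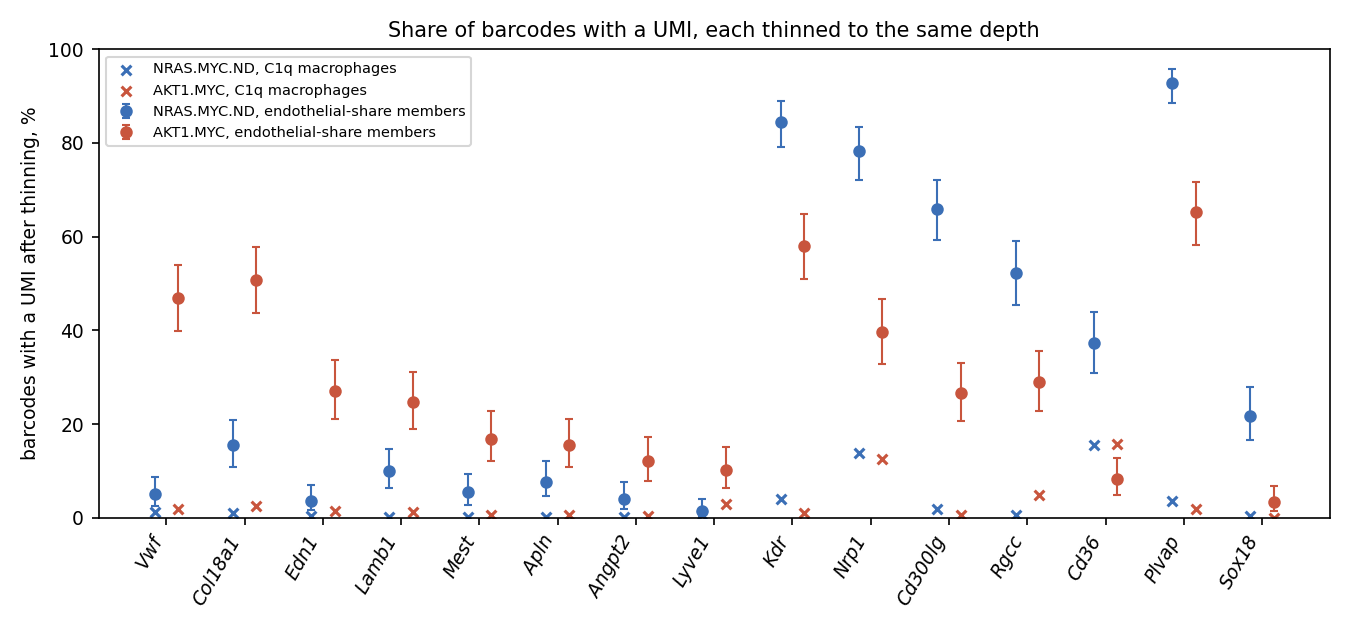
Percent of barcodes with at least 1 UMI after thinning to 1509 UMIs, with exact 95% intervals, for endothelial-share members (circles) and C1q macrophages (crosses) of NRAS.MYC.ND (blue) and AKT1.MYC (red). Vwf, Col18a1 and Edn1 are seen in more AKT1.MYC members, and Kdr, Nrp1, Cd300lg, Rgcc, Plvap and Sox18 in more NRAS.MYC.ND members.

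Promoter sequences are shown for 4 genes that the comparison turns on: Apln and Edn1, higher in AKT1.MYC, and Rgcc and Kdr, higher in NRAS.MYC.ND. Each is the 250 bases before the gene's start in RefSeq on GRCm38.p6, 5' to 3' on the gene's strand. Capitals mark matches, on either strand and overlaps included, to the motifs ACGTG (the core of hypoxia-inducible factor sites), GGAAG (a core of ETS factor sites) and GGGCGG (the GC box), which were chosen with these sequences in view. Apln lies at chrX:48034854-48035103, minus strand, Edn1 at chr13:42301226-42301475, plus strand, Rgcc at chr14:79301636-79301885, minus strand and Kdr at chr5:75978456-75978705, minus strand.
Apln: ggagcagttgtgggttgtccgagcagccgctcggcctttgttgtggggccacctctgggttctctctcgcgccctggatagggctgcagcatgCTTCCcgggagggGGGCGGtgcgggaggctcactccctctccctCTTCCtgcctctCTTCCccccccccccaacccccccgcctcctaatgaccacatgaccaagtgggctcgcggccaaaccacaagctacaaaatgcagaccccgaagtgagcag
Edn1: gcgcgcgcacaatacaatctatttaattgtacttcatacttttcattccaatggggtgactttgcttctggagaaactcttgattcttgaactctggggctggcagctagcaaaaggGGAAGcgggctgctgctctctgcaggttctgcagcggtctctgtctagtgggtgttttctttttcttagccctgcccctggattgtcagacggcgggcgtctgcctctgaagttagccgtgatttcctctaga
Rgcc: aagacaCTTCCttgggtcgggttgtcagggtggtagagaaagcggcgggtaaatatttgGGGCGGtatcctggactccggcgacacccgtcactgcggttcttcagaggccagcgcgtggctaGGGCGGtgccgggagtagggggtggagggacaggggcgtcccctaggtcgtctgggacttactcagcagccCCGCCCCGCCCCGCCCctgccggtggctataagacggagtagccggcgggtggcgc
Kdr: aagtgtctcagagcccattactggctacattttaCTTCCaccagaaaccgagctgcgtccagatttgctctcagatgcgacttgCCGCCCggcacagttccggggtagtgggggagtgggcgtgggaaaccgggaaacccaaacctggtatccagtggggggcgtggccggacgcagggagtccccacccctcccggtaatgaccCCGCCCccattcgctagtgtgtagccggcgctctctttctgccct

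None of the 4 windows held ACGTG, which was found in 16.6% of 32851 promoter windows of the same length. GGAAG was found in all 4, with 3 matches in Apln and 1 in each of the others, and in 64.1% of all windows. GGGCGG was found 5 times in Rgcc, 2 times in Kdr and 1 time in Apln, not in Edn1, and in 32.7% of all windows. Of the 20 tip genes 16, and of the 14 capillary genes 8, had a promoter in the table.

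Within the VEGF, angiopoietin and apelin pathways 3 ligands stood higher in AKT1.MYC, and Kdr, Nrp1, Aplnr and Ptprb stood lower. In the list of VEGF, angiopoietin and apelin receptors and ligands, 15 of 17 genes were measured, AKT1.MYC was the higher by 2-fold or more for 3, NRAS.MYC.ND for 4 and neither for 8, and the median was -0.43 (-0.89 to -0.20). The 3 ligands were Angpt2, Apln and Pgf, given above. Kdr (ENSMUSG00000062960, chr5:75932827-75978458, minus strand), the main signalling receptor for VEGF and a gene of the rule, stood at 1449.5 CPM in NRAS.MYC.ND and 654 CPM in AKT1.MYC (log2 ratio -1.15, 95% interval -1.25 to -1.04). The median endothelial-share member held (with quartiles) 1324 CPM (744 to 1889) for NRAS.MYC.ND and 547 CPM (243 to 900.3) for AKT1.MYC. Sinusoidal barcodes differed alike, at 2011 and 729 CPM, and Kdr was seen in 84.5% and 58% of thinned members against 3.92% and 0.993% of macrophages.

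Nrp1 (ENSMUSG00000025810, chr8:128358604-128503363, plus strand), a co-receptor for VEGF and semaphorins, stood at 1029 CPM in NRAS.MYC.ND and 353 CPM in AKT1.MYC (log2 ratio -1.54, 95% interval -1.68 to -1.41). Flt1, the decoy-like VEGF receptor, was at 1146 against 849 CPM, and Nrp2 at 197 against 109 CPM. Flt4, the receptor for Vegfc, was at 128 against 144 CPM. Of the angiopoietin receptors, Tek was at 138 against 98.2 CPM and its partner Tie1 at 491 against 297 CPM. The apelin pair therefore differed in opposite directions, the ligand higher and the receptor Aplnr (log2 ratio -1.32, 95% interval -1.83 to -0.84) lower in AKT1.MYC. Vegfa, which endothelium mostly receives from other cells, was low in members, at 5.88 against 7.37 CPM, and stood at 7.97 and 41.6 CPM in barcodes outside the endothelium. The list's median over all members was -1.41.

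**Figure D4:**
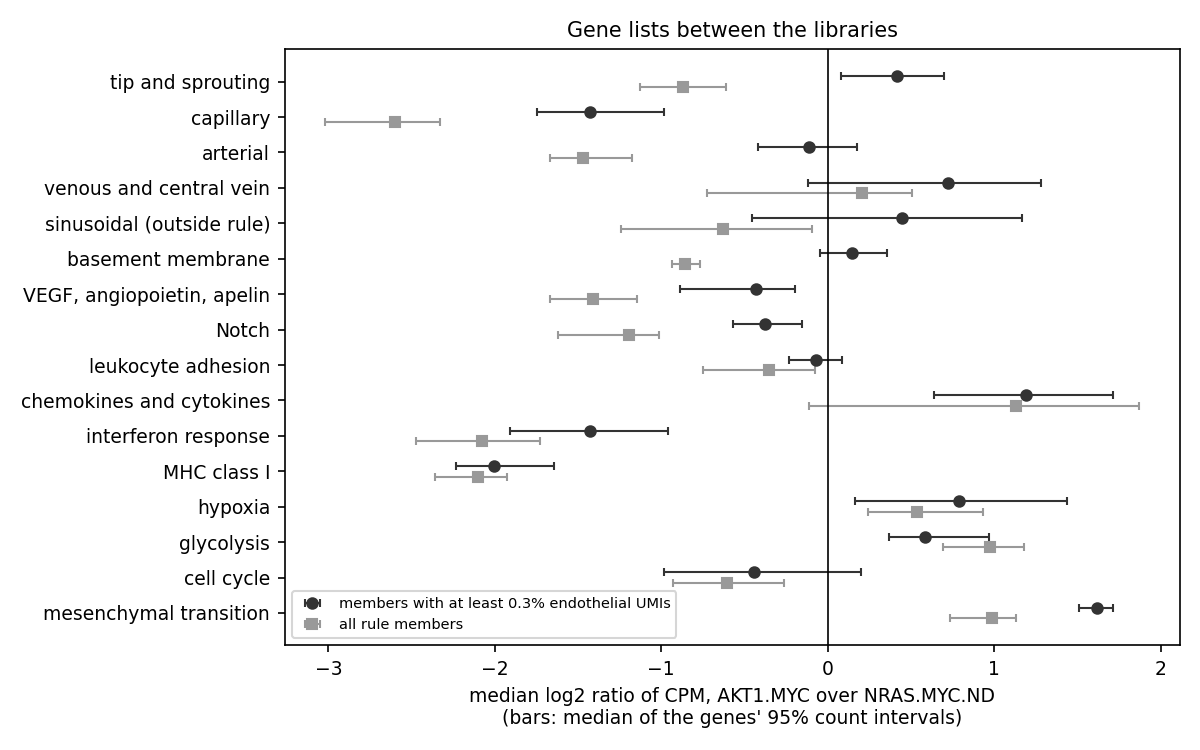
Median log2 ratio of each gene list, AKT1.MYC over NRAS.MYC.ND (x axis; bars are the medians of the genes' 95% counting bounds), for endothelial-share members (black circles) and all members (grey squares). The capillary, interferon and MHC class I lists are below 0 in both, the hypoxia, glycolysis and mesenchymal transition lists above 0 in both, and the tip, sinusoidal and basement membrane lists change side (sinusoidal genes outside the rule 0.44 and -0.63).

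Among pan-endothelial genes outside the rule, 27 of 27 were measured, AKT1.MYC was the higher by 2-fold or more for 1, NRAS.MYC.ND for 5 and neither for 21, with a median of -0.41 (-0.56 to -0.20). The share of these same 27 genes chose the endothelial-share members, so their levels there are in part set by that limit. Plvap (ENSMUSG00000034845, chr8:71497765-71511752, minus strand), which forms the diaphragms of capillary pores and caveolae, stood at 3425 CPM in NRAS.MYC.ND and 928 CPM in AKT1.MYC (log2 ratio -1.88, 95% interval -1.97 to -1.80), with 2975 CPM (1603 to 4499) for NRAS.MYC.ND and 709.7 CPM (289 to 1391) for AKT1.MYC in the median member. Sox18 (ENSMUSG00000046470, chr2:181669836-181671640, minus strand), a transcription factor gene of vessel development, stood at 174 CPM in NRAS.MYC.ND and 23.9 CPM in AKT1.MYC (log2 ratio -2.86, 95% interval -3.38 to -2.38), and its relative Sox17 at 208 against 186 CPM. Sox18 was also lower in AKT1.MYC among sinusoidal barcodes, at 97.7 and 13.8 CPM. Cldn5, a tight junction protein of endothelium, was the 1 gene at least 2-fold higher in AKT1.MYC, at 266 against 652 CPM. Erg, Fli1 and Clec14a were the other 3 genes higher in NRAS.MYC.ND, at 160.3 against 72.4 CPM, 250.04 against 124 CPM and 462 against 179.9 CPM. With all members the pan-endothelial list stood lower in AKT1.MYC, with AKT1.MYC the higher for 0 of 27 genes and NRAS.MYC.ND for 24 and a median of -1.73, and Cldn5 stood at 179 against 164 CPM.

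Arterial genes were mostly within 2-fold between the models. Of 17 arterial genes AKT1.MYC was the higher by 2-fold or more for 3, NRAS.MYC.ND for 0 and neither for 14, with a median of -0.11 (-0.42 to 0.18). The connexin genes Gja4 and Gja5 stood at 531 against 438 CPM and 93.5 against 76.1 CPM, Efnb2, the arterial ephrin, at 328 against 266 CPM, and Sema3g at 88.7 against 60.8 CPM. The 3 genes higher in AKT1.MYC were Bmx, Mgp and Clu. Bmx, at 9.62 against 20.3 CPM, stood at 6.76 against 5.46 CPM over all members, and Mgp and Clu stood at 30.9 and 354 and 3295 and 9233 CPM in barcodes outside the endothelium. In the Notch list, which holds the receptors, ligands and targets of the pathway that sets arterial fate, 12 of 14 genes were measured, 0 passed 2-fold in either direction, and the median was -0.38 (-0.57 to -0.15). Notch1 was at 253 against 203 CPM, Notch4 at 122 against 169 CPM and the target Hey1 at 251 against 130.1 CPM. With all members the arterial median was -1.47 and the Notch median -1.19.

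Venous and haemostatic genes were divided, with more of them higher in AKT1.MYC among endothelial-share members. Of 16 venous and central vein genes 14 were measured, AKT1.MYC was the higher by 2-fold or more for 7, NRAS.MYC.ND for 1 and neither for 6, and the median was 0.72 (-0.12 to 1.28). Vwf (ENSMUSG00000001930, chr6:125546774-125686679, plus strand) is a gene of the rule and is not on the venous list. Vwf, the platelet-binding protein of endothelial storage granules, stood at 34.7 CPM in NRAS.MYC.ND and 692 CPM in AKT1.MYC (log2 ratio 4.32, 95% interval 3.96 to 4.70). It was seen in 5% (95% exact interval 2.52 to 8.77%) of NRAS.MYC.ND members and 46.9% (95% exact interval 39.9 to 53.9%) of AKT1.MYC members, against 1.19% and 1.99% of thinned macrophages, and unthinned in 9.60% and 68.2% of members. Sinusoidal barcodes differed in the same direction, at 195 and 604 CPM. Vwf is 1 of the 7 genes that admit a member, so its level among members is in part set by the rule.

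Selp (ENSMUSG00000026580, chr1:164115264-164150026, plus strand), P-selectin, which shares the storage granules with Vwf and catches leukocytes, stood at 9.62 CPM in NRAS.MYC.ND and 60.2 CPM in AKT1.MYC (log2 ratio 2.65, 95% interval 1.91 to 3.46). Edn1 (ENSMUSG00000021367, chr13:42301476-42307990, plus strand), the vasoconstrictor endothelin 1, stood at 35.8 CPM in NRAS.MYC.ND and 256 CPM in AKT1.MYC (log2 ratio 2.84, 95% interval 2.46 to 3.23), and was seen in 3.64% and 27.1% of thinned members. Plat (ENSMUSG00000031538, chr8:22757727-22782844, plus strand), tissue plasminogen activator, stood at 39 CPM in NRAS.MYC.ND and 141 CPM in AKT1.MYC (log2 ratio 1.85, 95% interval 1.46 to 2.25). Ephb4, the venous ephrin receptor, was the 1 venous gene with NRAS.MYC.ND the higher by that margin, at 168 against 74.3 CPM, and Nr2f2, the transcription factor of venous fate, was at 54 against 66.9 CPM. Thbd, the anticoagulant thrombomodulin, was at 99.9 against 97.6 CPM. Among all members the venous list had no such lean, with AKT1.MYC the higher for 5 of 15 genes and NRAS.MYC.ND for 5 and a median of 0.21 (-0.72 to 0.51).

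Lymphatic genes were sparse. Of 9 genes 6 were measured, AKT1.MYC was the higher by 2-fold or more for 5 and NRAS.MYC.ND for 0, with a median of 3.18. Over all members, which held more UMIs, 9 were measured, with AKT1.MYC the higher for 5 of 9 genes and NRAS.MYC.ND for 3 and a median of 1.18. Lyve1, a hyaluronan receptor of lymphatic and sinusoidal endothelium, stood at 4.27 CPM in NRAS.MYC.ND and 133 CPM in AKT1.MYC (log2 ratio 4.96, 95% interval 3.95 to 6.19), and at 437 and 1204 CPM in sinusoidal barcodes. Ccl21a, a lymphatic chemokine, had 0 UMIs in NRAS.MYC.ND and 15.3 CPM in AKT1.MYC, at least 9.57-fold higher when 0 is set to 3 UMIs over the group, and Mmrn1 stood at 1.07 against 25.2 CPM. Prox1, the defining transcription factor of lymphatic fate, stood at 1.07 against 9.21 CPM and was higher in barcodes outside the endothelium, at 13.1 and 21.9 CPM. After thinning, UMIs of at least 2 lymphatic genes were held by 1 of 220 NRAS.MYC.ND members (0.455%, 95% exact interval 0.0115 to 2.51%) and 9 of 207 AKT1.MYC members (4.35%, 2.01 to 8.09%), against 0.256% and 0.261% of macrophages. Sinusoidal barcodes thinned alike were far above the members, at 26.3% for NRAS.MYC.ND and 32.6% for AKT1.MYC. Unthinned, 4% and 17.6% of members did so.

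Basement membrane genes as a list were close between the models, but single genes were not. Of 16 genes AKT1.MYC was the higher by 2-fold or more for 2, NRAS.MYC.ND for 3 and neither for 11, with a median of 0.14 (-0.047 to 0.35). The type IV collagen gene Col4a1 was at 2333 against 2416 CPM and Sparc, a collagen-binding matrix protein, at 6331 against 7093 CPM. Col18a1, whose product is the precursor of endostatin, stood at 131 CPM in NRAS.MYC.ND and 566 CPM in AKT1.MYC (log2 ratio 2.11, 95% interval 1.91 to 2.32). Sparcl1 was at 614 against 241 CPM, Igfbp7 at 7817 against 3654 CPM and Col15a1 at 216 against 67.5 CPM, each higher in NRAS.MYC.ND. Fn1, the other gene higher in AKT1.MYC, stood at 39 against 145 CPM and at 198 and 555 CPM outside the endothelium. Over all members the median was -0.86, with AKT1.MYC the higher for 0 of 16 genes and NRAS.MYC.ND for 7.

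Leukocyte adhesion genes had a median of -0.072 (-0.23 to 0.088), with AKT1.MYC the higher by 2-fold or more for 3 of 11 genes and NRAS.MYC.ND for 1. The 3 were Selp, Sele and Vcam1, the inducible adhesion molecules. Sele, E-selectin, was at 3.74 against 21.5 CPM and Vcam1 at 42.7 against 127 CPM, where Vcam1 was more abundant outside the endothelium, at 498 and 311 CPM. Icam1 was at 135 against 127 CPM and Icam2 at 302 against 248 CPM. Jam3, a junctional adhesion molecule, was the gene higher in NRAS.MYC.ND, at 113 against 30.1 CPM. The list's median over all members was -0.35.

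Chemokine and cytokine genes pointed both ways. Of 20 genes 16 were measured, AKT1.MYC was the higher by 2-fold or more for 8, NRAS.MYC.ND for 4 and neither for 4, with a median of 1.19 (0.64 to 1.71). Cxcl2, a neutrophil attractant, was at 23 against 452 CPM, but was far more abundant outside the endothelium, at 240.02 and 1917 CPM, and in macrophages, where 18.3% and 75.5% of thinned barcodes held a UMI. Ccl2 was at 2.14 against 30.7 CPM and 75.3 and 136 CPM outside. Cxcl9, a T cell attractant induced by interferon gamma, was at 50.8 against 11 CPM and Ccl5 at 151 against 11 CPM, and both were again higher outside the endothelium in NRAS.MYC.ND, at 208 and 5656 CPM. Ackr3, a scavenging receptor for Cxcl12, was at 212 against 84.7 CPM and at 7.63 and 3.25 CPM outside. With members thinned the list's median was -0.28, and with free RNA subtracted it was 0.15.

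MHC class I genes, which show peptides from inside the cell to cytotoxic T cells, stood lower in AKT1.MYC. For all 14 MHC class I presentation genes NRAS.MYC.ND was the higher by 2-fold or more, with a median of -2.01 (-2.24 to -1.64). H2-K1 (ENSMUSG00000061232, chr17:33996017-34000347, minus strand), a classical class I heavy chain, stood at 2479.6 CPM in NRAS.MYC.ND and 589.9 CPM in AKT1.MYC (log2 ratio -2.07, 95% interval -2.17 to -1.97), and B2m (ENSMUSG00000060802, chr2:122147686-122153083, plus strand), its light chain, at 2647 CPM in NRAS.MYC.ND and 633 CPM in AKT1.MYC (log2 ratio -2.06, 95% interval -2.16 to -1.97). The median member held (with quartiles) 2477 CPM (1809.5 to 3324) for NRAS.MYC.ND and 562 CPM (326 to 805) for AKT1.MYC of B2m. H2-D1 was at 2830.1 against 785 CPM, and the less classical H2-Q4 and H2-Q7 at 416 against 35 CPM and 344 against 18.4 CPM. These heavy chain genes are close relatives, and reads could be split between them in counting. The peptide transporter genes Tap1 and Tap2 were at 111 against 31.3 CPM and 141 against 17.8 CPM, and the immunoproteasome genes Psmb8 and Psmb9 at 387 against 153 CPM and 133 against 34.4 CPM.

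The difference was also seen outside these cells. B2m stood at 2611 and 681 CPM in sinusoidal barcodes and at 2393 and 627 CPM outside the endothelium, and Tap1 at 71.8 and 22.4 and 118 and 31.4 CPM. H2-K1 stood at 1936 and 1052 CPM outside the endothelium. The class I median over all members was -2.10, with 14 of 14 again higher in NRAS.MYC.ND.

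Interferon response genes differed in the same direction. Of 22 genes AKT1.MYC was the higher by 2-fold or more for 1, NRAS.MYC.ND for 17 and neither for 4, with a median of -1.43 (-1.91 to -0.96). Iigp1, an interferon-induced GTPase, stood at 584 CPM in NRAS.MYC.ND and 109 CPM in AKT1.MYC (log2 ratio -2.43, 95% interval -2.66 to -2.20), and Gbp4, of another such family, at 118 against 28.9 CPM. Rsad2, the antiviral viperin, was at 333 against 83.5 CPM, Ifit3 at 128 against 36.8 CPM and Isg15 at 255 against 104 CPM. Irf8, a transcription factor gene, was at 54.5 against 60.8 CPM, within 2-fold. Cxcl10 was the 1 gene at least 2-fold higher in AKT1.MYC, at 22.4 against 63.2 CPM, and stood at 46.3 against 44.3 CPM over all members. Sinusoidal barcodes held 977 and 317 CPM of Iigp1 and barcodes outside the endothelium 147 and 21.4 CPM. T, NK and B cell markers, given above, were also higher outside the endothelium in NRAS.MYC.ND, at 2336 against 81.3 CPM, and the part of such cells in these levels was not tested.

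**Figure D5:**
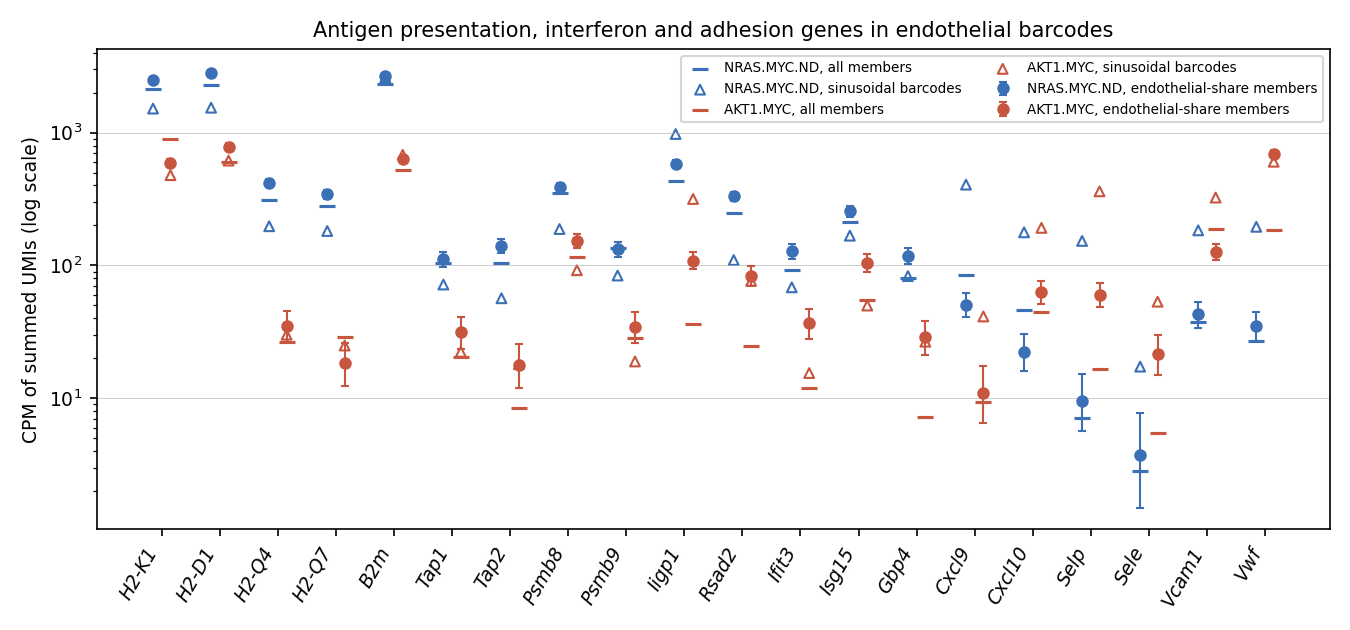
CPM of summed UMIs on a log scale for antigen presentation, interferon and adhesion genes, with NRAS.MYC.ND in blue and AKT1.MYC in red; filled circles with exact 95% Poisson bars are endothelial-share members, dashes all members and open triangles sinusoidal barcodes. From H2-K1 to Cxcl9 the blue circles are above the red ones, and from Cxcl10 to Vwf the red are above the blue.

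MHC class II genes, which present antigen to helper T cells, had NRAS.MYC.ND the higher by 2-fold or more for 4 of 6 measured, with a median of -1.72 (-1.97 to -1.44). Over all members NRAS.MYC.ND was the higher for 7 of 7, with a median of -2.78. Cd74, the invariant chain, was at 800.4 against 219 CPM in members and at 16373 and 1369 CPM outside the endothelium, so the part of free RNA in it was not told apart from the members' own.

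Hypoxia and glycolysis genes stood higher in AKT1.MYC. Of 16 hypoxia genes 15 were measured, AKT1.MYC was the higher by 2-fold or more for 6, NRAS.MYC.ND for 1 and neither for 8, with a median of 0.79 (0.16 to 1.44). Hilpda, a lipid droplet protein, was at 26.7 against 107 CPM, Egln3, an oxygen-sensing hydroxylase, at 1.07 against 23.3 CPM and Ero1l at 14.4 against 57.7 CPM. Adm, Vegfa and Ndrg1 were within 2-fold, and Ddit4, also a stress gene, was higher in NRAS.MYC.ND, at 647 against 228 CPM. Of 16 glycolysis genes AKT1.MYC was the higher by 2-fold or more for 6, NRAS.MYC.ND for 0 and neither for 10, with a median of 0.59 (0.37 to 0.97), and over all members the median was 0.97. The enzymes Pgk1, Tpi1 and Pgam1 were at 180.1 against 578 CPM, 99.4 against 298 CPM and 129.8 against 327 CPM, the lactate exporter Slc16a3 at 6.41 against 44.2 CPM and the glucose transporter Slc2a1 at 25.1 against 54.6 CPM. Barcodes outside the endothelium differed in the same direction, with Pgk1 at 198 and 501 and Hilpda at 31.9 and 170.4 CPM.

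Genes read as a transition from endothelial to mesenchymal state had a median of 1.62 (1.51 to 1.71), with AKT1.MYC the higher by 2-fold or more for 9 of 15 genes and NRAS.MYC.ND for 1. The collagen genes Col1a1 and Col3a1 were at 0.534 against 79.2 CPM and 4.27 against 145 CPM, with 1 and 8 UMIs in NRAS.MYC.ND. Their shares in thinned AKT1.MYC members, 13.5% and 16.4%, were near those in AKT1.MYC macrophages, 13% and 19.8%. No excess over macrophages was therefore shown, and the source of this collagen RNA was not tested. Over all members the list's median was 0.98, with AKT1.MYC the higher for 8 of 17 genes and NRAS.MYC.ND for 4, and with free RNA subtracted it was 0.14 in endothelial-share members. Vim, an intermediate filament gene, was at 1699.5 against 4672 CPM in members and 659 and 1076 CPM outside the endothelium, and S100a6 at 701 against 2152 CPM. Transcription factors of the list did not reach 2-fold higher: Snai1 was at 39 against 28.2 CPM, Snai2 at 18.2 against 5.52 CPM, Twist1 at 21.4 against 26.4 CPM and Zeb1 at 123 against 100.1 CPM.

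Cell cycle genes had a median of -0.44 (-0.99 to 0.20), with AKT1.MYC the higher by 2-fold or more for 0 of 20 genes and NRAS.MYC.ND for 3. Mki67, a proliferation marker, was at 52.9 against 19.6 CPM and Top2a at 56.1 against 30.1 CPM. After thinning, 18.2% of NRAS.MYC.ND members and 23.2% of AKT1.MYC members held UMIs of at least 2 of the 20 genes, against 12% and 22% of macrophages, and unthinned 56% and 69.5%. With every member weighted equally the median was 0.22, so no direction is given.

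A further 3 lists, on bone morphogenetic protein and transforming growth factor beta signalling, shear and vascular tone, and fatty acid handling, had medians of -0.10, -0.049 and -0.10. Among all members these medians were -0.96, -1.40 and -0.31, and in the shear list NRAS.MYC.ND was the higher by 2-fold or more for 11 of 16 genes. Klf2 and Klf4, transcription factors induced by laminar flow, were at 1955 against 1213 CPM and 706 against 285 CPM, and Nos3, endothelial nitric oxide synthase, at 64.6 against 76.1 CPM. Bmp4 was at 2.67 against 19.6 CPM and Smad6, a feedback inhibitor of the pathway, at 60.4 against 25.2 CPM.

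Whether or not they were on a list, the genes with the largest ratios were taken from those with at least 50 CPM in the higher library, an interval that excluded 2-fold and a level at least 2-fold that of barcodes outside the endothelium. In AKT1.MYC 46 of the 11691 measured genes passed in endothelial-share members, and 6 of 14612 passed over all members. Several of the 46 are list genes given above, among them Lyve1, Vwf, Pgf, Edn1, Selp and Angpt2. The 46 were led by Npy, Ptn and Chst1, which had 1, 2 and 1 UMIs in NRAS.MYC.ND. Npy, neuropeptide Y, had 118 UMIs in AKT1.MYC (log2 ratio 7.08, 95% interval 4.58 to 12.40), and was present in sinusoidal barcodes too, at 7.93 and 94.6 CPM. Ptn, the growth factor pleiotrophin, stood at 112 CPM in AKT1.MYC (log2 ratio 6.71, 95% interval 4.83 to 9.76) and at 0.860 CPM in AKT1.MYC sinusoidal barcodes. Nts, neurotensin, stood at 13.4 CPM in NRAS.MYC.ND and 285 CPM in AKT1.MYC (log2 ratio 4.42, 95% interval 3.84 to 5.06), and was seen in 2.27% and 17.4% of thinned members. Igfbp5 was at 12.3 against 212 CPM but at 161 against 75 CPM over all members, Itgb3, the beta chain of the vitronectin receptor, at 12.8 against 91.5 CPM, and Slco2a1, a prostaglandin transporter, at 17.1 against 115 CPM.

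In NRAS.MYC.ND 334 of 14612 measured genes passed over all members. In endothelial-share members 109 of 11691 passed, with Tap2, Sox18 and Tcf15 from the lists among the leading ones. Pcp4l1 led, at 127 against 2.46 CPM, followed by H2-Q6, H2-Q4 and Scarb1. Scarb1, the high-density lipoprotein receptor, stood at 1382 CPM in NRAS.MYC.ND and 129 CPM in AKT1.MYC (log2 ratio -3.42, 95% interval -3.63 to -3.22), and was seen in 70.9% and 17.4% of thinned members against 15.2% and 5.12% of macrophages. Thrsp, a lipogenesis gene, was at 201 against 19.6 CPM, Meox1, a homeobox gene, at 169 against 26.4 CPM, and Clic5 at 83.9 against 8.59 CPM. Ly6c1, a surface antigen of capillary endothelium in mice, stood at 3950.5 against 738 CPM, and at 507 and 365 CPM in sinusoidal barcodes.

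The mouse genes related to the injected constructs were within 2-fold in endothelial-share members, with a median log2 ratio of -0.18. Nras was at 126 against 95.2 CPM, Akt1 at 211 against 185 CPM and Myc at 21.4 against 28.9 CPM. Over all members AKT1.MYC was the higher by 2-fold or more for 1 of the 3, NRAS.MYC.ND for 1 and neither for 1, with a median of 0.61. The constructs for N-Ras and c-Myc were human, and counting against the mouse genome need not report them, so these levels do not check which cells carry a construct.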

How the data were processed

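Single-cell 3' RNA libraries of 1 NRAS.MYC.ND and 1 AKT1.MYC liver tumour sample were used. The deposited values are raw UMI counts per gene and barcode, made with Cell Ranger 6.1.1 per the file headers and 6.1.2 per the submitters' processing notes, against mm10. All 55450 features matched GENCODE vM21, which gave the gene coordinates on GRCm38. No barcode held under 500 UMIs, and each library held 42416125 or 64516171 UMIs.

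Members were chosen by the rule in the opening. The members and gene lists were chosen with earlier results of these data known, and the 0.3% limit on pan-endothelial genes was set after the values were seen. UMIs were summed over members per library and expressed as CPM, with exact Poisson intervals, exact conditional binomial intervals for ratios and exact Clopper-Pearson intervals for shares, each at the 95% level. No test was possible with a single library for each model, so no p-value is given. A gene counted as measured once both libraries together held 10 UMIs of it, and as higher in a library from 2-fold on. Cells were thinned to 1509 UMIs, the 10th percentile of members (seed 0), and members with the highest Scrublet doublet scores were kept in the main results. Genes were named from the lists, the rule, and up to 15 per direction with the largest ratios, at least 50 CPM, at least 30 UMIs, an interval excluding 2-fold and at least 2-fold the level outside the endothelium; the last set excluded mitochondrial, ribosomal, haemoglobin, sex-linked, receptor segment and unnamed genes. The free RNA fraction was estimated from hepatocyte, macrophage, neutrophil and lymphocyte markers in members over other barcodes. Scripts were tested on simulated counts. Python 3.11.15, NumPy 2.4.6, pandas 2.3.3, SciPy 1.17.1, Scanpy 1.11.5 and matplotlib 3.10.9 were used. Promoters came from RefSeq on GRCm38.p6.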

Additional observations from a re-analysis of the deposited data

How the results depend on the processing

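No paired analysis was possible because each group has 1 library. Leaving out a replicate was not possible for the same reason, and no spread between animals is known. Capillary, interferon and MHC class I medians were below 0 under every alternative run, over all members and in endothelial-share members, and hypoxia and glycolysis medians above 0. Alternatives on the endothelial share were chosen after seeing the data. Median-of-ratios scaling moved the median log2 ratio of all genes from -0.050 to 0.071 over all members. Where a value below changed sign or moved, the cause was not tested. The member share of NRAS.MYC.ND was 4.02% with at least 4 endothelial rule genes, 2.85% with no sinusoidal rule gene and 4.10% in endothelial-share members. The member share of AKT1.MYC was 2.59% with at least 4 endothelial rule genes, 2.46% with no sinusoidal rule gene, 4.99% with at least 1000 UMIs and 2.26% in endothelial-share members. Genes past 2-fold with AKT1.MYC or with NRAS.MYC.ND the higher numbered 2332 and 2751 over all members, 1312 and 1157 with thinned barcodes and 1323 and 1285 in endothelial-share members. Medians between the models over all members moved as follows. With at least 4 endothelial rule genes they were tip -0.45, capillary -2.18, arterial -0.93, sinusoidal -0.052, basement membrane -0.52, VEGF -0.95, Notch -0.89 and mesenchymal 1.53. With no sinusoidal rule gene they were tip -1.27, capillary -3.04, basement membrane -1.07, VEGF -1.73 and mesenchymal 1.41. With equal weight per barcode they were tip -0.039, capillary -1.80, arterial -0.39, basement membrane -0.15, VEGF -0.57, Notch -0.50, interferon -1.61, hypoxia 0.94 and cell cycle -0.21. With thinned barcodes they were tip -0.21, capillary -1.75, arterial -0.58, basement membrane -0.088, VEGF -0.63, Notch -0.39, interferon -1.59, glycolysis 0.69, cell cycle -0.20 and mesenchymal 1.37. In endothelial-share members they were tip 0.42, capillary -1.43, arterial -0.11, venous 0.72, sinusoidal 0.44, basement membrane 0.14, VEGF -0.43, Notch -0.38, adhesion -0.072, interferon -1.43, glycolysis 0.59 and mesenchymal 1.62. With free RNA subtracted they were arterial -1.67, basement membrane -1.17 and mesenchymal -0.38. With median-of-ratios scaling the basement membrane median was -0.74. With upper-quartile scaling the basement membrane median was -0.76. With genes of at least 3 UMIs the adhesion median was -0.89. With genes at or above the level of the other barcodes they were adhesion -0.89, chemokine -0.82, MHC class I -1.64, hypoxia 0.95 and mesenchymal -0.26. The tip, sinusoidal and basement membrane lists changed sign in endothelial-share members, and the mesenchymal list changed sign with free RNA subtracted and with genes at or above the level of the other barcodes, as did the chemokine list under the latter. Mest over all members was -0.26 with no sinusoidal rule gene. In endothelial-share members, genes higher in AKT1.MYC numbered 801 with thinned barcodes, where fewer genes are measured. There the tip median was 0.013 with thinned barcodes. There the chemokine median was -0.28 with thinned barcodes, 0.15 with free RNA subtracted and 0.55 in members at or below the median epithelial and hepatocyte marker share. There the cell cycle median was 0.22 with equal weight per barcode. There the mesenchymal median was 1.91 at a limit of 0.15%, 1.41 with equal weight per barcode, 1.85 with thinned barcodes, 0.14 with free RNA subtracted, 1.77 without the highest doublet scores and 1.32 in members at or below the median epithelial and hepatocyte marker share. Against sinusoidal barcodes of NRAS.MYC.ND, medians with at least 4 endothelial rule genes were tip 0.85, capillary 1.12 and basement membrane 0.79. Those in endothelial-share members were tip 1.00, capillary 1.27 and basement membrane 0.93. Those with no sinusoidal rule gene were venous -2.19 and sinusoidal -4.30. Against sinusoidal barcodes of AKT1.MYC, medians with at least 4 endothelial rule genes were tip 0.25, capillary -1.04, arterial 0.19, venous -1.47 and basement membrane 0.15. Those in endothelial-share members were tip 0.94, capillary -0.070, arterial 1.03, venous -1.04, sinusoidal -2.71 and basement membrane 0.68. With no sinusoidal rule gene the capillary median was -2.06. The share of members with at least 2 lymphatic genes was 8.39% and 24.9% unthinned, and 0% and 0.865% with at least 3 genes. The share of members with at least 2 cell cycle genes was 60.1% and 77.2% unthinned, and 9.43% and 12.7% with at least 3 genes. Depth limits low genes: an absence of UMIs allows 3 UMIs over the group. Thinned shares near those in macrophages show no excess over macrophages, which is not an absence of expression.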
